A study of Oreochromis mossambicus with 12 samples.

Results

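Vesicle traffic was described here through 106 genes of 7 name families: the Rab GTPases, the sorting nexins (Snx), the vacuolar protein sorting genes (Vps), the charged multivesicular body proteins (Chmp), the syntaxins (Stx), the vesicle-associated membrane proteins (Vamp) and the exocyst subunits (Exoc). They were chosen by symbol alone. Of 28921 symbols in the expression table, 121 began with 1 of these family names and a digit, and 106 of those had a mean of at least 1 FPKM over all libraries. FPKM is an expression level scaled to the length of the transcript and to the size of the library. The 106 genes comprised 20 Rab GTPases, 5 proteins named for their work with Rabs, 24 Snx, 30 Vps, 7 Chmp, 9 Stx, 3 Vamp and 8 Exoc genes. The other 15 matching symbols lay under the level minimum, 10 of them Rabs. Just inside it were snx14 at 1.62 FPKM and rab3ip at 2.39 FPKM, and just outside it rab34 at 0.644 FPKM, rab11fip3 at 0.631 FPKM and rab23 at 0.628 FPKM.

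The cells were leukocytes from the head kidney, the main blood-forming organ of bony fishes, of the tilapia Oreochromis mossambicus. They were kept overnight as primary cultures on collagen, in RPMI medium with tilapia serum, penicillin and streptomycin, and then treated for 12 h. The 4 groups of 3 libraries each were PBS, heat-killed Streptococcus agalactiae at 1 bacterium per cell (1 MOI; called bacteria below), sodium nitrite at 1000 μM (nitrite), and both agents at those doses (co-treatment). Whether a group's 3 libraries stem from different fish or cultures is not stated in the labels. The p-values therefore rest on the spread among these libraries, which could be technical.

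A Rab is a small GTPase that marks a membrane compartment and recruits the motors and tethers that move it. Tethering complexes such as HOPS, CORVET, GARP and the exocyst, built largely of Vps and Exoc proteins, hold a vesicle at its target, and SNAREs (syntaxins and VAMPs) fuse it. Sorting nexins and the retromer return cargo from endosomes, and the ESCRT complexes, of which the Chmp proteins form the last, pinch membrane away from the cytosol. In phagocytes the same machinery turns a newly closed phagosome into a degrading compartment. The roles named below are known from mammals and yeast and are given as background.

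The labelled cell type was checked against marker genes. The 4 pan-leukocyte markers matched by symbol (lcp1, spi1, was and dock2, of 12 listed) summed to 1312 to 1666 FPKM in PBS and 1600 to 1696 FPKM in bacteria libraries. They did not move together. Lcp1 averaged 685 FPKM in PBS and 1023 FPKM in bacteria. Spi1 (680 and 511 FPKM), was (78.7 and 56.0 FPKM) and dock2 (66.8 and 50.6 FPKM) were lower in bacteria. None of them was called with bacteria against PBS. Gata1, the only 1 of 6 erythroid markers matched by symbol, had at most 0.55 FPKM, and the 4 of 5 kidney tubule markers matched summed to at most 1.26 FPKM in any library. PBS replicate 1 stood apart from the other libraries. It correlated with the others of its group at 0.81 and 0.85. Ribosomal protein genes took 5.01% of its FPKM sum against 17.7% and 16.5%. The 106 trafficking genes took 0.935% of it against 0.608% and 0.613%. Sums of FPKM ran from 422129 to 503740. Relative depth was estimated from what was taken to be the value of a single read in 17 genes. It spanned 1.45-fold over all libraries and 1.19-fold without PBS replicate 1. These genes were picked for nonzero values that differ little between libraries, which limits the span that could be found.

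The comparison of bacteria with PBS asked how the trafficking genes of these leukocytes stood 12 h after they met dead bacteria. The 3 largest rises were those of snx10, rab20 and snx18, at 11.7-, 9.65- and 7.23-fold in mean FPKM. The largest falls on log2(FPKM + 1) were those of rab31, snx17 and snx2, which ended 4.89-, 3.85- and 3.45-fold lower in mean FPKM. In mean FPKM itself the low genes snx33 and rab30 ended 5.67- and 4.71-fold lower. In all, 16 of the 106 genes rose and 23 fell at an adjusted p under 0.05 (limma on log2(FPKM + 1), Benjamini-Hochberg adjustment over the 12423 genes tested). These are 15.1% and 21.7% of the members, beside 10.7% and 26.3% of all genes tested, and 36.8% against 37.0% in either direction. In this fit, which does not use the replicate number, the trafficking genes passed the test about as often as all genes. That depended on the setting. After median-ratio scaling a larger share of the members than of all genes was called, and with the replicate number as a block a smaller share. The median log2 change of the members was -0.04 and that of all genes -0.29, and after median-ratio scaling, which shifts the median of all genes to 0.04, that of the members turned positive at 0.32.

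**Figure D1:**
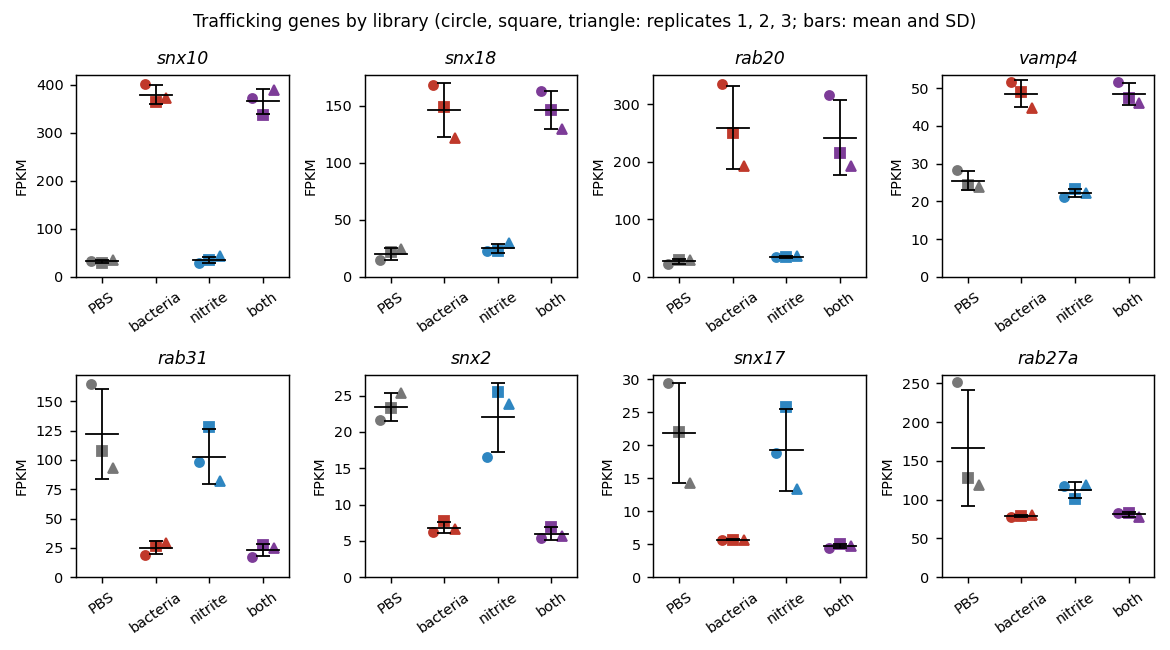
FPKM (y axis) of 8 trafficking genes in each library of the 4 groups (x axis, "both" is co-treatment); circles, squares and triangles are replicates 1, 2 and 3 and bars the mean and SD. For snx10, rab20, snx18 and vamp4 every library with bacteria lies above every library without, and for rab31, snx2 and snx17 below.

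Among the Rab GTPases, rab20, which in mammalian macrophages takes part in phagosome maturation, had 22.1, 29.6 and 29.0 FPKM in PBS replicates 1 to 3 and 336, 250 and 192 FPKM in bacteria. It had 34.6, 33.6 and 37.0 FPKM in nitrite and 317, 216 and 194 FPKM in co-treatment. The libraries with and without bacteria were far apart, and replicate 1 was the highest of both groups that received bacteria. The log2 change with bacteria was 3.20 ± 0.24 (SE; adjusted p = 8.11e-06). The only other Rab that rose was rab5c, an early endosome Rab, from 106 ± 6.77 to 143 ± 9.69 FPKM (mean ± SD, n = 3; log2 0.43 ± 0.14, adjusted p = 0.0342). The call of rab5c was lost after quantile normalization and without any of PBS replicates 2 and 3, the bacteria libraries or co-treatment replicate 2.

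In the other direction 7 of the 20 Rabs fell, beside 26.3% of all genes tested. Rab31, which works between the Golgi and endosomes, had 165, 108 and 92.9 FPKM in PBS and 18.8, 26.8 and 29.4 FPKM in bacteria. It had 98.2, 129 and 81.7 FPKM in nitrite and 16.9, 27.4 and 24.9 FPKM in co-treatment, so that no library with bacteria came near one without. Its log2 change was -2.22 ± 0.28 (adjusted p = 0.000219), and -1.98 without PBS replicate 1, its highest library. Rab30, a Golgi Rab, fell from 5.46 ± 2.59 to 1.16 ± 0.510 FPKM (log2 -1.53 ± 0.34, adjusted p = 0.00594).

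Rab27a, which docks secretory granules and lysosome-related organelles, was the most abundant of the falling Rabs. It had 252, 127 and 119 FPKM in PBS and 78.0, 79.0 and 80.1 FPKM in bacteria. The groups did not overlap, the bacteria libraries were nearly equal, and PBS replicate 1 was far above the others of its group. Its log2 change was -0.98 ± 0.25 (adjusted p = 0.0110) and -0.63 (adjusted p = 0.00298) when PBS replicate 1 was left out. With median-ratio scaling it was -0.58 and no longer called (adjusted p = 0.133). The early endosome Rab rab5a fell from 43.5 ± 14.8 to 24.0 ± 2.20 FPKM (log2 -0.79 ± 0.25, adjusted p = 0.0295), opposite in direction to its paralog rab5c, but not past the threshold without PBS replicate 1 (log2 -0.53, adjusted p = 0.0707).

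The remaining Rabs that fell were rab13, rab18 and rab41. Rab13, known from junctional and recycling traffic, went from 15.2 ± 5.39 to 6.67 ± 0.484 FPKM, and rab18, found on the endoplasmic reticulum and lipid droplets, from 10.5 ± 2.95 to 4.92 ± 1.14 FPKM. Rab41, named after its values were seen, went from 34.1 ± 5.06 to 22.8 ± 0.912 FPKM. None of these 3, nor rab5a or rab27a, passed the threshold after median-ratio scaling, and the family then counted 4 higher and 2 lower in place of 2 and 7. Of all genes tested 17.7% were then called higher and 30.8% in either direction. The other 11 Rabs passed in neither direction, among them rab10, which carries vesicles to the surface, with 82.5 ± 5.47 FPKM in PBS and 66.5 ± 7.07 FPKM in bacteria, and the late endosome Rab rab9a with 17.6 ± 3.10 and 16.5 ± 0.590 FPKM. Of these 11, rab24 was called when the replicate number was fitted as a block. In that fit 14.8% of all genes tested were called higher and 38.6% lower.

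Of the 5 Rab partners 2 fell and none rose, while of all genes tested 26.3% fell and 10.7% rose. Rab11fip4, which binds Rab11 on recycling endosomes, had 20.2, 14.0 and 18.3 FPKM in PBS and 7.26, 5.47 and 6.84 FPKM in bacteria (log2 -1.29 ± 0.21, adjusted p = 0.00117). Rab3ip, an exchange factor that activates Rab8, had 3.31, 4.08 and 3.32 FPKM in PBS and 1.15, 1.41 and 1.23 FPKM in bacteria (log2 -1.01 ± 0.19, adjusted p = 0.00202). In both genes every bacteria library was under every PBS library. Both are sums over several transcripts, 4 and 11, and neither call was kept when the most abundant transcript alone was tested.

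Of the 24 sorting nexins 5 rose and 8 fell, beside 10.7% and 26.3% of all genes tested. Snx10, which acts in endolysosome formation and in the traffic of the vacuolar proton pump, was the most abundant of all members, at a mean of 203 FPKM over the 12 libraries. It had 32.5, 29.7 and 35.4 FPKM in PBS and 403, 365 and 371 FPKM in bacteria. It had 28.5, 34.2 and 42.5 FPKM in nitrite and 372, 337 and 388 FPKM in co-treatment. No library with bacteria came near one without, and the log2 change was 3.51 ± 0.17 (adjusted p = 3.40e-07). Its closest relative, snx11, had 34.1, 23.5 and 21.2 FPKM in PBS and 37.9, 57.1 and 39.3 FPKM in bacteria. These values come near each other at PBS replicate 1, and the log2 change was 0.75 ± 0.27 (adjusted p = 0.0463), a call lost when any 1 of several libraries was left out.

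Snx18, snx9 and snx33 form a subfamily that bends membrane in endocytosis, and they moved apart. Snx18 had 14.6, 21.4 and 24.6 FPKM in PBS and 168, 149 and 121 FPKM in bacteria (log2 2.81 ± 0.21, adjusted p = 8.59e-06). Snx9 had 146, 101 and 95.9 FPKM in PBS and 53.2, 53.3 and 44.6 FPKM in bacteria (log2 -1.15 ± 0.21, adjusted p = 0.00230). Snx33 had 5.17, 5.68 and 2.02 FPKM in PBS and 0.760, 1.11 and 0.400 FPKM in bacteria (log2 -1.53 ± 0.41, adjusted p = 0.0143). It met the level minimum only through PBS and nitrite (means of 4.29 and 5.40 FPKM), with 0.757 FPKM in bacteria and 0.507 FPKM in co-treatment. No bacteria library overlapped with PBS in any of the 3, so that in FPKM snx9 stood above snx18 in every PBS library and below it in every bacteria library. The directions were the same under median-ratio scaling and quantile normalization, but snx33 was not called after quantile normalization or without PBS replicate 2.

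The other nexins that fell were snx2, snx17, snx1, snx13, snx14 and snx19. Snx2, a partner of the retromer, had 21.6, 23.3 and 25.4 FPKM in PBS and 6.16, 7.67 and 6.56 FPKM in bacteria (log2 -1.65 ± 0.19, adjusted p = 0.000111). Snx17, which returns receptors such as integrins to the surface, had 29.4, 22.0 and 14.3 FPKM in PBS and 5.70, 5.66 and 5.69 FPKM in bacteria (log2 -1.72 ± 0.27, adjusted p = 0.000754). The groups were well apart in both genes, with the bacteria libraries of snx17 almost identical. Snx1, which pairs with the same partners as snx2, fell less, from 8.40 ± 0.746 to 5.24 ± 0.225 FPKM (log2 -0.59 ± 0.14, adjusted p = 0.00946), and was not called after median-ratio scaling (log2 -0.24). Snx5 and snx6, the other chains of that coat, did not pass the test, with log2 changes of -0.38 and -0.40. Snx13, which carries an RGS domain, fell from 8.98 ± 3.41 to 2.81 ± 0.0569 FPKM. Snx14 and snx19 were named after their values were seen, with log2 changes of -0.91 and -1.10, and neither was called after median-ratio scaling. Snx14 met the level minimum only through PBS and nitrite (means of 2.56 and 2.39 FPKM), with 0.903 FPKM in bacteria and 0.633 FPKM in co-treatment. The direction of snx19 turned, to 0.21, when its most abundant transcript alone was tested (adjusted p = 0.812). Snx29 rose from 6.73 ± 0.554 to 13.3 ± 0.429 FPKM and snx30 from 7.09 ± 2.75 to 14.9 ± 2.76 FPKM. Snx3, a carrier of retromer cargo and among the 5 most abundant members, went from 108 ± 6.36 to 155 ± 24.0 FPKM, with an adjusted p of 0.0581. These calls leave out the replicate number. With it as a block snx3, snx7, snx8, snx15, snx24 and snx25 were called too, and no nexin call was lost. Of all genes tested 14.8% were then called higher and 38.6% lower. Snx8, snx24 and snx25 were named after their values were seen.

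**Figure D2:**
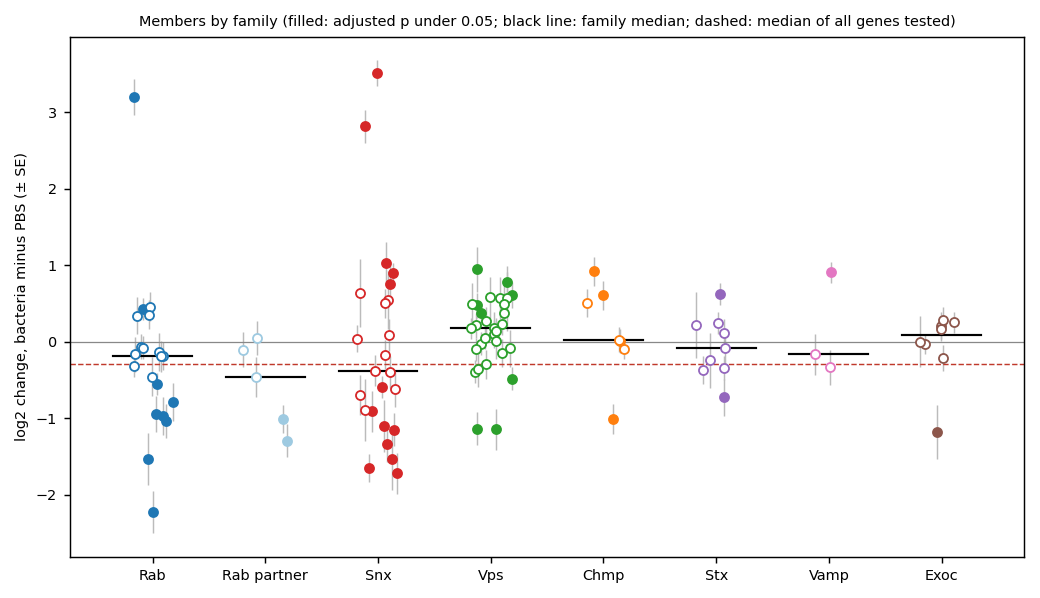
Log2 change of each member (y axis, bacteria minus PBS, on log2(FPKM + 1), bars ± SE) by family (x axis), with filled points at an adjusted p under 0.05 and the family median as a black line. Rab20, snx10 and snx18 stand far above the rest, and the Vps median of 0.18 lies above the dashed median of all genes at -0.29.

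Of the 30 Vps genes 5 rose and 3 fell, beside 10.7% and 26.3% of all genes tested. In this fit the rises lay among subunits of ESCRT-I and HOPS, and only that of vps37b was called under every alternative setting. With the replicate number as a block vps13a, vps13b and vps9d1 were called too, the last named after its values were seen. Of all genes tested 14.8% were then called higher and 38.6% lower. In ESCRT-I, which sorts ubiquitinated cargo into multivesicular bodies, vps37b had 27.9, 26.6 and 25.5 FPKM in PBS and 47.5, 44.9 and 47.2 FPKM in bacteria, with tight groups that did not overlap (log2 0.78 ± 0.13, adjusted p = 0.00140). Its paralog vps37a had 30.1, 18.1 and 20.4 FPKM in PBS and 30.9, 46.5 and 59.1 FPKM in bacteria, where replicate 1 of each group nearly met (log2 0.95 ± 0.30, adjusted p = 0.0291). Vps28, of the same complex, went from 40.4 ± 2.63 to 56.6 ± 5.30 FPKM (log2 0.47 ± 0.16, adjusted p = 0.0391). The call of vps28 was kept in 3 of the 12 fits that left out a library.

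HOPS tethers late endosomes, lysosomes and phagosomes, and CORVET, which shares its core, tethers early endosomes. Vps41, found in HOPS, had 33.5, 23.3 and 24.4 FPKM in PBS and 37.9, 43.5 and 43.0 FPKM in bacteria (log2 0.61 ± 0.17, adjusted p = 0.0159). Vps8, found in CORVET, had 12.9, 7.67 and 6.81 FPKM in PBS and 3.31, 3.28 and 3.81 FPKM in bacteria (log2 -1.14 ± 0.22, adjusted p = 0.00255). Neither gene's groups overlapped. Vps39, the other subunit particular to HOPS, had a log2 change of -0.10 (adjusted p = 0.620), so that the complex was not called as a whole. Of the shared core, vps18 passed, from 15.1 ± 0.907 to 19.9 ± 1.28 FPKM (adjusted p = 0.0403), though not without most single libraries, while vps11, vps16 and vps33a had log2 changes of 0.27, 0.57 and 0.23 and did not pass.

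In the retromer, the core that retrieves cargo from endosomes, the paralogs of the vps26 subunit differed. Vps26b had 95.4, 45.1 and 52.1 FPKM in PBS and 27.4, 22.9 and 31.1 FPKM in bacteria (log2 -1.15 ± 0.26, adjusted p = 0.00699). The groups did not overlap, and PBS replicate 1 was far above its group. Without that library the log2 change was -0.82 (adjusted p = 0.00877), and with median-ratio scaling it was -0.75 (adjusted p = 0.0681). Vps26a had a log2 change of -0.30 (adjusted p = 0.246), and vps29 and vps35 ones of 0.21 and 0.10, none of which passed. Vps50, of an endosomal recycling tether, fell from 14.2 ± 2.07 to 9.82 ± 0.699 FPKM, and was not called after median-ratio scaling. After that scaling 15 Vps genes were called higher and 1, vps8, lower, the largest move of any family. Beside them, 17.7% of all genes tested were then called higher and 30.8% in either direction.

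Among the ESCRT-III proteins, chmp2a had 56.0, 71.4 and 64.3 FPKM in PBS and 139, 130 and 98.5 FPKM in bacteria (log2 0.92 ± 0.19, adjusted p = 0.00422). Chmp2b had 60.9, 42.0 and 47.0 FPKM in PBS and 71.3, 84.0 and 72.2 FPKM in bacteria (log2 0.61 ± 0.19, adjusted p = 0.0299). Chmp7, which brings ESCRT-III to the nuclear envelope, had 8.78, 7.99 and 8.59 FPKM in PBS and 2.48, 4.17 and 4.72 FPKM in bacteria (log2 -1.01 ± 0.20, adjusted p = 0.00312). The groups did not overlap in any of the 3 genes, and chmp7 was the only Chmp gene that fell. Chmp1b, from 99.6 ± 12.3 to 141 ± 5.72 FPKM, missed the threshold (adjusted p = 0.0519) and passed it with the replicate number as a block (adjusted p = 0.0287). Chmp1a, chmp3 and chmp4b had log2 changes of 0.01, 0.03 and -0.09 and did not pass.

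The SNAREs that passed the test were vamp4, stx5 and stx18. Of 9 syntaxins 1 rose and 1 fell, and of 3 VAMPs 1 rose, beside 10.7% of all genes tested that rose and 26.3% that fell. Vamp4, which fuses endosome-derived vesicles with the trans-Golgi network, had 28.3, 24.4 and 23.8 FPKM in PBS and 51.7, 49.1 and 44.8 FPKM in bacteria (log2 0.91 ± 0.13, adjusted p = 0.000596). Stx5, of transport between the endoplasmic reticulum and the Golgi, had 24.4, 21.6 and 23.2 FPKM in PBS and 32.0, 36.3 and 40.2 FPKM in bacteria (log2 0.62 ± 0.14, adjusted p = 0.00622). In both genes the lowest bacteria library was clearly above the highest PBS library. Stx18, of traffic back to the endoplasmic reticulum, fell from 14.3 ± 4.66 to 8.09 ± 1.79 FPKM (adjusted p = 0.0387), a call that was lost when PBS replicate 1 was left out (adjusted p = 0.0981) and with median-ratio scaling (adjusted p = 0.251). The surface and endosome SNAREs vamp3, vamp7, stx3 and stx12 did not pass, with log2 changes of -0.34, -0.17, -0.24 and 0.24.

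Of the 8 exocyst subunits, which tether secretory vesicles to the plasma membrane, exoc6 alone passed (beside 37.0% of all genes tested). It had 46.5, 22.1 and 15.9 FPKM in PBS and 12.3, 11.7 and 8.49 FPKM in bacteria (log2 -1.18 ± 0.36, adjusted p = 0.0246). The groups did not overlap, but the PBS libraries ranged widely among themselves, and without PBS replicate 1 the adjusted p was 0.0565. Exoc7 had 11.3, 37.3 and 31.9 FPKM in PBS and 24.6, 24.6 and 22.7 FPKM in bacteria, so that 1 PBS library lay below and 2 above all bacteria libraries. Its log2 change was 0.00 over all libraries and -0.51 without PBS replicate 1 (adjusted p = 0.0159). The other 6 subunits had log2 changes between -0.22 and 0.29.

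Summed FPKM over the members, a sum that the abundant genes weigh most, was 3335 ± 530 (SD, n = 3) in PBS and 3943 ± 210 in bacteria, 3032 ± 138 in nitrite and 3947 ± 204 in co-treatment. Snx10, rab20 and snx18, picked for this sum after their values were seen, together had 79.6 ± 9.96 FPKM in PBS, 785 ± 112 in bacteria, 95.1 ± 12.2 in nitrite and 754 ± 84.6 in co-treatment. The other 103 genes summed to 3256 ± 540, 3158 ± 132, 2937 ± 141 and 3193 ± 183 FPKM in the same order. The overlap of PBS with bacteria in that sum rests on PBS replicate 1, at 3878 FPKM. The other PBS libraries had a mean of 2944 FPKM, under every bacteria library, the lowest of which had 3017 FPKM, so the direction turned without replicate 1.

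For 23 members every bacteria library was above every PBS library, and for 30 below, 21.7% and 28.3%, beside 13.8% and 34.6% of all genes tested. Between nitrite and co-treatment 28 and 31 members were so separated, 26.4% and 29.3%, beside 15.7% and 38.8%. Between bacteria and co-treatment 5 were higher and 6 lower in every co-treatment library, 4.72% and 5.66%, beside 3.32% and 3.85% of all genes tested.

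The comparison of co-treatment with nitrite gave the effect of bacteria in the presence of nitrite. Its group means came from libraries that the comparison of bacteria with PBS did not use. Its calls did not, since the spread was estimated over all 4 groups, and more members were called without PBS replicate 1. With all 12 libraries 17 members rose and 21 fell, 16.0% and 19.8%, beside 10.6% and 23.3% of all genes tested, and 35.9% against 33.9% in either direction. In both comparisons together 13 members rose and 18 fell, while none was called in opposite directions. The 13 are 81.3% of the members that rose with bacteria alone and 76.5% of those that rose with bacteria in nitrite, and the 18 are 78.3% and 85.7% of the respective falls. For all genes tested those shares were 83.7%, 84.7%, 76.2% and 86.0%, so the members were close to the background here too. Across the 106 members the log2 changes of the comparisons had r = 0.96 and the same sign in 84.9%, beside r = 0.93 and 87.3% for all genes tested. These are descriptions, since genes are not independent and the libraries share replicate numbers.

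**Figure D3:**
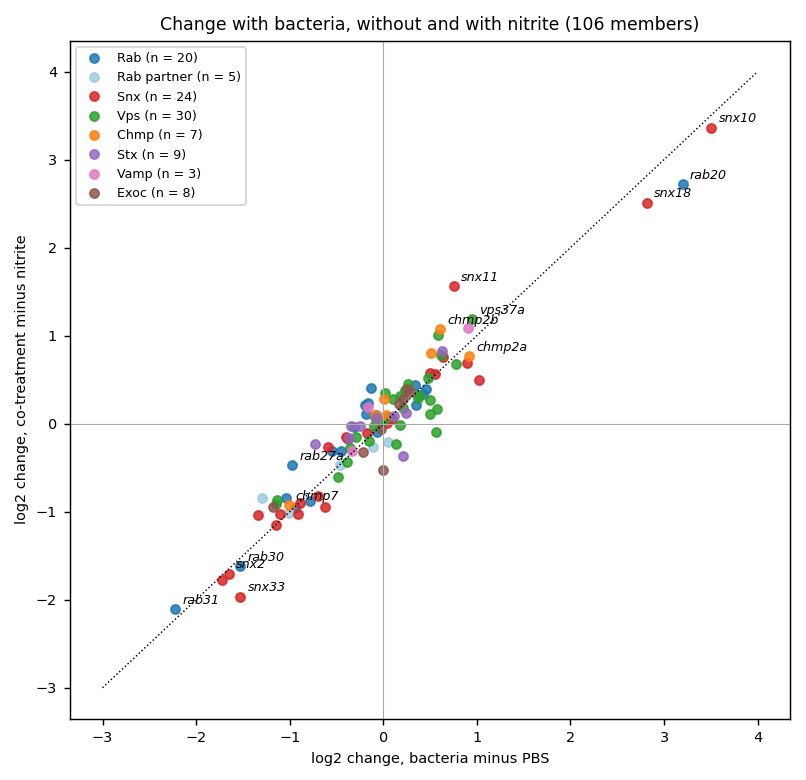
Log2 change of each of the 106 members with bacteria alone (x axis, bacteria minus PBS) against that with bacteria in nitrite (y axis, co-treatment minus nitrite), both on log2(FPKM + 1). Points follow the diagonal, with rab20, snx10 and snx18 at the upper right and rab31 at the lower left; 13 members rose and 18 fell in both.

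The sizes were alike for most leading genes. The log2 change in nitrite was 3.36 ± 0.17 for snx10, 2.72 ± 0.24 for rab20, 2.51 ± 0.21 for snx18 and -2.11 ± 0.28 for rab31. It was 1.09 ± 0.13 for vamp4, 0.83 ± 0.14 for stx5, -1.70 ± 0.19 for snx2 and -1.77 ± 0.27 for snx17. The members called with bacteria alone but not in nitrite were rab5c, snx30 and vps18 among the rises and rab27a, rab41, snx1, stx18 and exoc6 among the falls. Rab27a in nitrite had 118, 101 and 119 FPKM and in co-treatment 83.3, 82.5 and 77.1 FPKM, apart without overlap (log2 -0.47 ± 0.25, adjusted p = 0.164). Those called in nitrite only were chmp1b, snx3, vps13a and exoc5 among the rises, and snx7, snx15 and vps13b among the falls. With the replicate number as a block all of these but exoc5 were called with bacteria alone too, and rab5c and exoc6 were called in nitrite too. Vps13a, a lipid transfer protein, went from 20.8 FPKM in nitrite to 42.8 FPKM in co-treatment (log2 1.00, adjusted p = 0.0144), and from 27.8 to 40.1 FPKM between PBS and bacteria (log2 0.58, adjusted p = 0.109). The difference between the effects did not pass the test for any member.

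Co-treatment against PBS shares its controls with the comparison of bacteria with PBS. It had 15 members higher and 25 lower, or 37.7% in either direction, beside 11.4%, 27.7% and 39.0% of all genes tested. Its values were 3.45 for snx10, 3.10 for rab20, 2.82 for snx18 and -2.34 for rab31 on the log2 scale.

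Nitrite alone moved no trafficking gene past the threshold. Against PBS, 0 members were called and 0 had an unadjusted p under 0.05 (limma), beside 0.00% of all genes tested called. With the replicate number as a block 0 were called and 3 had an unadjusted p under 0.05. The smallest unadjusted p-values in limma belonged to stx18 (log2 -0.48 ± 0.25), rab27a (log2 -0.47 ± 0.25) and rab9a (log2 -0.27 ± 0.15), each with an adjusted p of 1.00. In rab27a PBS replicate 1 was far above its group. Transcript 1 of rab27a had 138 FPKM there, 59.6 and 47.2 FPKM in the other PBS libraries and a mean of 51.5 FPKM in nitrite. For transcript 2 these values were 115, 67.9, 71.6 and 61.2 FPKM. Without overlap between the libraries were rab20, higher in nitrite, and rab9a and vamp4, lower, which is 0.94% and 1.89% of the members beside 1.05% and 1.86% of all genes. Rab20 had at most 29.6 FPKM in PBS and at least 33.6 FPKM in nitrite, a difference of a few FPKM beside the levels above 190 FPKM with bacteria. The SE of the log2 difference, in the fit without the block, was between 0.17 and 0.28 for snx10, rab20, snx18 and rab31. A change must exceed its SE several times to pass the adjusted threshold. Effects of nitrite on these genes of the size of the SE, or somewhat larger, could therefore have been missed.

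Adding nitrite to bacteria likewise gave 0 calls among the members, beside 0.00805% of all genes tested, and 1 unadjusted p under 0.05 (limma). That gene was snx11, with 37.9, 57.1 and 39.3 FPKM in bacteria and 72.8, 104 and 51.8 FPKM in co-treatment. The co-treatment value was the higher within each replicate number, but the groups overlapped, since co-treatment replicate 3 lay under bacteria replicate 2. With the replicate number as a block snx11 was not called either. The log2 difference was 0.72 ± 0.27 (unadjusted p = 0.0206, adjusted p = 1.00, limma). Its log2 change with bacteria was 0.75 in PBS and 1.56 in nitrite, a difference of 0.81 ± 0.38 (unadjusted p = 0.0540, limma). Chmp2b came next, with 71.3, 84.0 and 72.2 FPKM in bacteria and 86.8, 118 and 88.2 FPKM in co-treatment, values that did not overlap (log2 0.35 ± 0.19, unadjusted p = 0.0971, limma). For the difference between the effects of bacteria, 0 members were called beside 0.00805% of all genes tested, and 0 had an unadjusted p under 0.05 (1 with the block).

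PBS replicate 1 touched many of the values above. Of the 106 members 41 were higher in it than in all other 11 libraries and 17 lower, 38.7% and 16.0%, beside 29.2% and 20.9% of all genes tested. The syntaxin stx3 had 116 FPKM there against 46.5 and 43.6 FPKM in the other PBS libraries, while stx17, a SNARE of autophagosomes, had 2.58 against 15.6 and 10.4 FPKM and vps16 6.15 against 26.3 and 22.9 FPKM. Without that library 20 members rose and 23 fell, beside 11.2% and 28.5% of all genes tested. Exoc6, rab5a and stx18 were then no longer called, and exoc7 became a call in the falling direction. Snx10, rab20 and snx18 had log2 changes of 3.51, 3.07 and 2.61 without it.

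**Figure D4:**
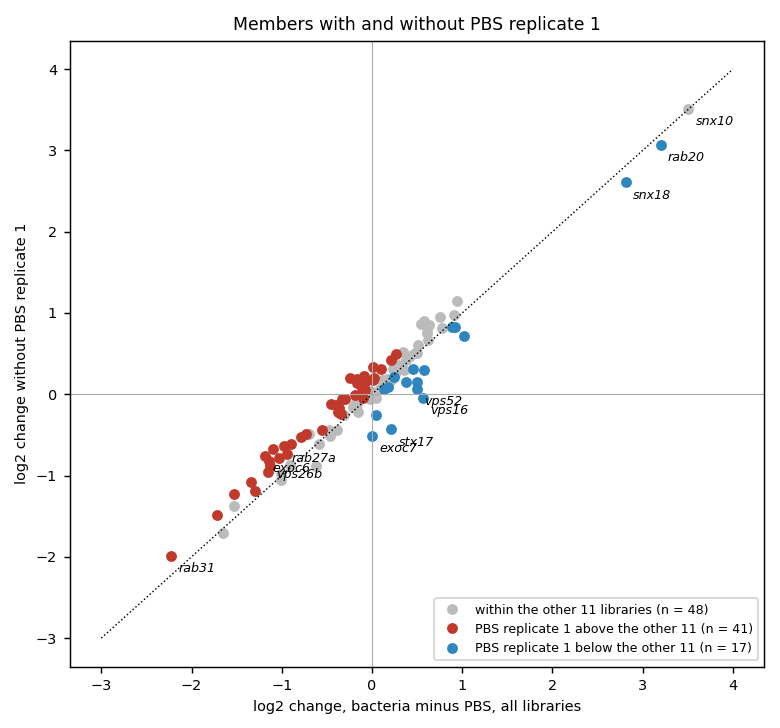
Log2 change of each member with bacteria over all libraries (x axis) against that without PBS replicate 1 (y axis), both on log2(FPKM + 1), coloured by whether PBS replicate 1 lies above (41 members), below (17) or within the other 11 libraries. The dotted line is equality; members for which that library is highest lie above the line, and exoc7 and stx17 lie well below it.

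The members that rose with bacteria under every alternative setting run were the 8 genes snx10, rab20, snx18, snx29, vamp4, stx5, vps37b and chmp2a. Those that fell under every setting in which they were tested were the 8 genes rab31, rab30, snx2, snx17, snx9, snx13, chmp7 and vps8. The other 8 rises (chmp2b, rab5c, snx11, snx30, vps18, vps28, vps37a and vps41) were each lost when at least 1 of the libraries was left out, and the other 15 falls under at least 1 setting. In nitrite the corresponding lists held 11 and 7 members. How many of all genes tested kept a call under every setting was not counted, so these lists have no share of all genes beside them. Median-ratio scaling moved the split most: with bacteria against PBS it gave 34 higher and 11 lower, 42.5% of the members, beside 17.7% and 13.05% of all genes tested and 30.8% in either direction. Quantile normalization gave 15 and 14, beside 13.1% and 14.3%. With the replicate number as a block 22 members rose and 28 fell, beside 14.8% and 38.6% of all genes tested, and no call was lost. The same settings gave like shifts in the other comparisons with bacteria. With co-treatment against nitrite, median-ratio scaling gave 33 higher and 9 lower (17.1% and 12.5% of all genes), quantile normalization 15 and 9 (13.2% and 11.9%) and the block 24 and 24 (14.7% and 36.2%). With co-treatment against PBS, they gave 34 and 12 (18.7% and 14.7%), 15 and 16 (14.1% and 15.4%) and 20 and 32 (15.5% and 38.7%).

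**Figure D5:**
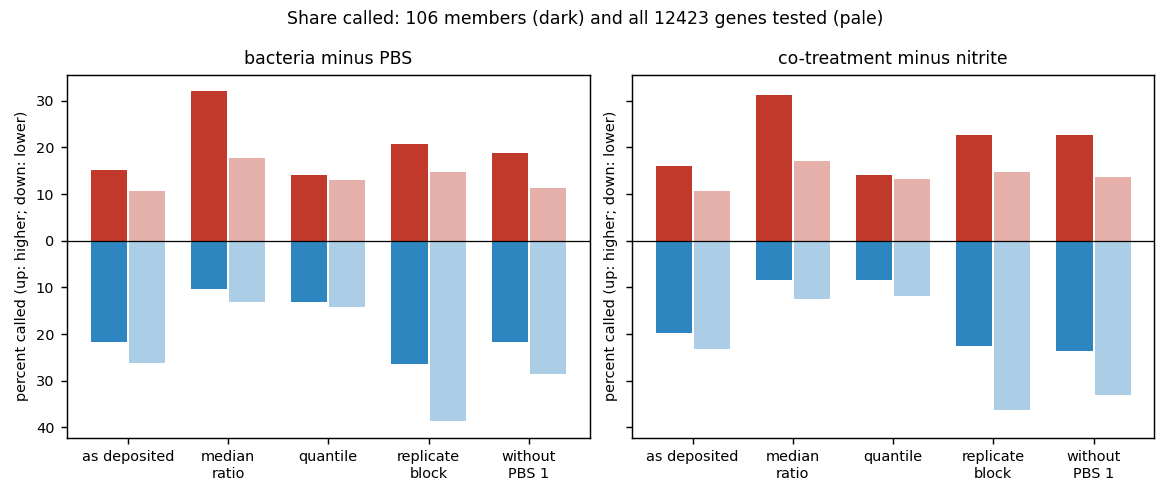
Percent of the 106 members (dark) and of all 12423 genes tested (pale) called higher (upward bars) or lower (downward bars) with bacteria, without nitrite (left panel) and with it (right panel), under 5 settings (x axis). The share of members called higher exceeds that of all genes in each setting, by least after quantile normalization, and the share called lower is below that of all genes in each.

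Other genes of the same pathways, outside the 7 name families, were counted in lists. Of 14 other ESCRT genes 6 rose and none fell with bacteria (median log2 0.55), and 7 rose in nitrite (median log2 0.66). Beside them, 10.7% of all genes tested rose and 26.3% fell with bacteria (median log2 -0.29). With bacteria in nitrite 10.6% rose and 23.3% fell (median log2 -0.32). The rises included ist1, a partner of the Chmp proteins, from 62.6 ± 3.76 to 167 ± 18.5 FPKM (log2 1.40 ± 0.17, adjusted p = 0.000161), and hgs, of ESCRT-0, from 33.4 ± 9.03 to 63.2 ± 6.89 FPKM. Of 36 Rab regulators 5 rose and 11 fell (median log2 -0.24, and 8 and 5 with a median of 0.12 after median-ratio scaling). The exchange factor dennd5a rose from 7.86 ± 1.64 to 76.2 ± 7.20 FPKM (log2 3.13 ± 0.23, adjusted p = 7.63e-06), and the GTPase activator rabgap1 fell from 23.1 ± 6.06 to 5.62 ± 0.119 FPKM (log2 -1.83 ± 0.22, adjusted p = 0.000152).

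Of 35 genes for endosomal phosphoinositides 7 rose and 5 fell, among them the kinase pi4k2a, from 27.3 ± 4.31 to 89.0 ± 20.9 FPKM, and the phosphatase inpp5b, from 51.9 ± 24.1 to 5.88 ± 0.835 FPKM. Of 23 other SNAREs and SNARE partners 2 rose and 3 fell, with snap23, a partner of the surface syntaxins, going from 93.9 ± 4.64 to 142 ± 10.1 FPKM and stxbp3 from 70.9 ± 26.7 to 27.2 ± 1.90 FPKM. Of 37 coat, adaptor and dynamin genes 3 rose and 2 fell, against 17 and 0 after median-ratio scaling. Of 28 autophagy genes 8 rose and 7 fell, with the receptor optn going from 45.5 ± 8.26 to 104 ± 7.25 FPKM and wipi1 from 25.5 ± 9.25 to 5.92 ± 0.240 FPKM. Of 21 genes of phagocytic uptake 2 rose and 8 fell, with the lysosomal membrane protein lamp1 going from 70.7 ± 6.36 to 133 ± 7.07 FPKM and the integrin itgav from 18.3 ± 7.99 to 4.32 ± 0.944 FPKM. Beside these counts, 10.7% of all genes tested rose and 26.3% fell. After median-ratio scaling 17.7% of all genes tested rose and 30.8% were called in either direction.

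Markers of particular leukocytes and of other cells moved with bacteria as well, and fewer cells of a type and less RNA per cell cannot be told apart in such cultures. Epx, a granulocyte peroxidase, averaged 5953 FPKM in PBS and 126 FPKM in bacteria. Of 4 macrophage markers 3 fell, with sums of 343 to 560 FPKM in PBS and 283 to 356 FPKM in bacteria, and csf1r went from 49.6 ± 26.6 to 2.37 ± 1.16 FPKM. The remaining macrophage marker, irf8, averaged 58.3 FPKM in PBS and 113 FPKM in bacteria and was not called. Of 2 neutrophil markers 1 rose (sums of 326 to 394 and 430 to 492 FPKM). The rise lay in ncf1, which averaged 192 FPKM in PBS and 310 FPKM in bacteria. The other, csf3r, averaged 177 FPKM in PBS and 147 FPKM in bacteria and was not called. Of 5 B cell markers 2 fell (117 to 208 and 28.0 to 40.2 FPKM). The fall of the B cell sum lay mainly in the 2 called genes, btk (112 FPKM in PBS and 24.6 FPKM in bacteria) and swap70 (log2 -2.55). Cd79a, cd79b and pax5 had log2 changes of -0.72, -0.75 and -0.29 and were not called (adjusted p = 0.119, 0.185 and 0.491, limma). None of 2 T cell markers was called, with sums of 2.91 to 4.45 and 2.22 to 3.50 FPKM. Of 3 thrombocyte markers 2 fell (70.3 to 131 and 50.8 to 67.3 FPKM, with f13a1 listed at 0). The remaining one, fli1, averaged 23.5 FPKM in PBS and 30.9 FPKM in bacteria and was not called. Both fibroblast markers tested, pdgfrb and tagln, fell (46.2 to 74.0 and 11.7 to 21.6 FPKM). Of the other fibroblast markers col1a1 was listed at 0, and col1a2 and dcn had at most 0.01 and 0.04 FPKM in any library. Of 3 endothelial markers tested, flt1 rose and stab1 and stab2 fell (sums of 3.75 to 24.5 and 38.7 to 80.3 FPKM). The rise of that sum lay in flt1, which averaged 0.973 FPKM in PBS and 57.4 FPKM in bacteria. The endothelial markers kdr and cdh5 had at most 0.09 and 0.04 FPKM in any library. The part of these marker shifts in the changes of the trafficking genes was not tested.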

How the data were processed

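Per the labels' protocols, Trizol was used for the RNA and a TruSeq kit for the libraries. The submitters' processing notes name Trimmomatic 0.30, HISAT2 2.0.1 and HTSeq 0.6.1, without their roles. The authors deposited FPKM values per transcript, to 2 decimals. Annotation, genome build and FPKM tool: not given in the sources used here. All 12 value columns could be matched to a sample by their titles.

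FPKM of the 58070 transcripts were summed per lower-case symbol. Of 28921 symbols, 18784 (64.9%) are LOC identifiers, so paralogs listed under such an identifier were not counted as members, and reads shared between near-identical paralogs may be split between them. Of a panel of 76 phagosome and endosome symbols, 54 were tested, and the others, such as rab7a, were not analysed here. Of the members 53 have 1 transcript and 53 more, up to 11. The 12423 genes whose mean reached 1 FPKM were tested with limma 3.58.1 (empirical Bayes with trend, R 4.3.3) on log2(FPKM + 1), all 4 groups fitted together, with 8 residual degrees of freedom, for 6 contrasts with Benjamini-Hochberg adjustment and a threshold of 0.05. A log2 change on this scale understates that of low genes. Only 3 libraries per group limit the precision, and no count test was run, since read counts were not analysed here. The script was tested on simulated data with independent noise in each library. These had no effect shared by replicate number and no library that stood apart, so they do not give the error rates of the present data.

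The genes named were, per family and direction, up to 5 with the smallest adjusted p in each comparison with bacteria, the 5 most abundant, the 3 with the smallest p in each other comparison, and the panel. Others are said to be named after their values were seen, and snx7 and snx15 were so named too. The members, lists and tests were chosen with earlier results of these data known.

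Replicate numbers come from the sample titles. Deviations from the group means correlated at 0.416 to 0.919 in 18 pairs with the same number and at most -0.0044 in pairs with different numbers. The deviations of a group sum to 0 in each gene, which lowers the latter. In these deviations 12 of 12 libraries were closest, among the other groups, to one with their own number. In expression levels nitrite replicate 1 was closest to PBS replicate 2 (r = 0.96). The numbers were taken to pair the libraries. The SEs, p-values and calls reported are nonetheless from the fit without the replicate number, unless another setting is named, and so leave the pairing out. The replicate block was fitted as an alternative. The others were pseudocounts of 0.1 and 3 FPKM, no filter, a mean of at least 5 FPKM, median-ratio scaling, quantile normalization, the transcript with the highest mean in place of the sum, and leaving out each library.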

Additional observations from a re-analysis of the deposited data

How the results depend on the processing

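Counts of members called kept within 1.5 times of those reported under both other pseudocounts, both other filters, the replicate block and the most abundant transcript. After median-ratio scaling the members higher and lower were 34 and 11 with bacteria against PBS, 34 and 12 with co-treatment against PBS, and 33 and 9 with co-treatment against nitrite. Quantile normalization lowered the falling counts to 14, 16 and 9 in that order. The cause was not tested. Leaving out each library in turn gave 8 to 20 members higher and 17 to 24 lower with bacteria against PBS, 11 to 20 and 21 to 24 with co-treatment against PBS, and 13 to 24 and 15 to 25 with co-treatment against nitrite. The lowest counts higher with bacteria were 9 without PBS replicate 2, 10 without bacteria replicate 1 and 8 without bacteria replicate 2. Among these fits the share of all genes tested was counted only without PBS replicate 1. It was 11.2% higher and 28.5% lower with bacteria against PBS. Whether the lower counts are particular to the members therefore cannot be told. The other comparisons stayed at 0 to 0 members. With the replicate block, where the numbers pair the libraries, 22 and 28, 20 and 32, and 24 and 24 members were called in the same order, with 11, 12 and 10 gained and 0 lost. For exoc7, leaving out a library gave -0.51 to 0.31 with bacteria and -0.49 to 0.33 with co-treatment against PBS, called lower in both without PBS replicate 1 (adjusted p = 0.0159 and 0.0174). Vps13b turned from -0.43 to 0.0067 in co-treatment against nitrite after quantile normalization, and snx19 from -1.10 to 0.21 with bacteria against PBS and to 0.15 with co-treatment against PBS in its most abundant transcript. Depth is known only in relative terms, so genes near the level minimum, such as snx14 and rab30, carry the least certain fold changes.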

Other observations

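The rise of snx10 lay mainly in 1 of its 2 annotated transcripts, a split looked at after the values were seen. Its transcript 2 averaged 26.0 ± 3.36 FPKM (SD, n = 3) in PBS and 365 ± 24.1 FPKM with bacteria, a 14.1-fold ratio of means, and its transcript 1 had 6.56 ± 2.20 and 14.8 ± 4.05 FPKM, a 2.25-fold ratio. The granule Rab rab27a was 3.04-fold lower with bacteria in transcript 1, from 81.5 ± 49.1 to 26.8 ± 4.43 FPKM, and 1.62-fold in transcript 2, from 84.7 ± 26.0 to 52.2 ± 4.03 FPKM. Without PBS replicate 1, which had 138 FPKM in transcript 1, the ratios were 1.99 and 1.34. Transcript 1 of snx30 was listed at 0 in PBS replicate 1 and had 4.25 and 5.56 FPKM in the other PBS libraries. How the deposited values divide reads between transcripts is not given in the sources used here, and no test was run on single transcripts.

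Some matching genes under the level minimum had unlike group means. Rab34 averaged 1.18 FPKM in PBS, 0.183 with bacteria, 0.997 with nitrite and 0.213 with co-treatment. Rab23 averaged 1.15, 0.30, 0.860 and 0.203 FPKM in the same order, and rab11fip3 0.333, 1.09, 0.230 and 0.873 FPKM. Rab38, which works in lysosome-related organelles, averaged 0.0433, 0.207, 0.0567 and 0.487 FPKM. They were chosen after their values were seen, and at these levels no test was made.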
